A study of Mus musculus with 12 samples.

Results

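Tmem176a, Tmem176b and Ccr6 are genes of type 17 lymphocytes, and they were taken by name wherever the deposited averages of spleen T cells listed them. All 3 were listed for CD4 cells and 0 for CD8a cells, out of 2999 genes listed for CD4 cells, 2851 for CD8a cells and 3684 in all. The study compared 12 mice in 4 groups of 3: C57Bl6/J wild type without stress (WT control), S100a9-/- on C57Bl6/J without stress (KO control), wild type after repeated social defeat (WT stress) and S100a9-/- after repeated social defeat (KO stress). In social defeat, used to model psychosocial stress, an aggressor mouse repeatedly overpowers the test mouse. Defeat ran for 10 days, a day of behavioural tests (1 day) came next, and spleens were taken on day 12. The knockout is carried by the whole animal, so a difference between genotypes need not arise in the T cells, and the number of lines or litters is not given in the labels.

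Type 17 lymphocytes, among them Th17 cells, make interleukin 17 in defence of the gut and skin. Ccr6 is the receptor for the chemokine Ccl20 and guides these cells to epithelia, but B cells and some regulatory T cells carry it too. Tmem176a and Tmem176b are membrane proteins related to the Ms4a family. They are found in type 17 lymphocytes and also in dendritic cells, where Tmem176b acts as an intracellular cation channel.

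Tmem176a (ENSMUSG00000023367.14) lies on chromosome 6 at 48840919 to 48847071 on the plus strand of mm10, and Tmem176b (ENSMUSG00000029810.15) at 48833818 to 48841496 on the minus strand. The 2 genes stand head to head, and their annotated 5′ parts overlap by 578 bases while their 3′ ends are 13253 bases apart. The library kit reads the ends of transcripts; whether counting used the strand is not stated in the labels. Ccr6 (ENSMUSG00000040899.14) is on chromosome 17 at 8236043 to 8257141 on the plus strand, so it is not a neighbour of the pair.

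The bases before the start of each gene were searched on both strands for AGGTCA, a half-site shared by many nuclear receptors, and for TTCNNNGAA, the palindrome bound by STAT proteins such as Stat3. All 3 genes matched the RefSeq promoter table (GRCm38.p6), and the first start listed for each was used. The Ccr6 sequence is shown because its window held no base of an exon annotated for these genes. This sequence is also the only one of the 3 that held either motif. It covers the 250 bases before the start, chr17:8235793-8236042, plus strand, 5′ to 3′, with the matches in capitals.
Ccr6: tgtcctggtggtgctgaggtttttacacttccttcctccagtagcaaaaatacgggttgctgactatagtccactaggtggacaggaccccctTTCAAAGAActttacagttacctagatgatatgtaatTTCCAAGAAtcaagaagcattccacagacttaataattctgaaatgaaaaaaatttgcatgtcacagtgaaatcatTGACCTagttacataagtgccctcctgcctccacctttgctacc
The AGGTCA match is on the minus strand and ends 39 bases before the start. The TTCNNNGAA matches, 2 in number, lie 149 to 157 and 112 to 120 bases before it. AGGTCA occurred in 13.8% and TTCNNNGAA in 7.18% of 27025 such windows, 1 for each gene of the table. The Tmem176a and Tmem176b windows held neither motif. Their starts are 345 bases apart, and all 250 bases of either window fall in exons annotated for some transcript of the pair, so they are not printed. A match is a run of letters and no evidence of binding.

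Expression was given as an average per mouse and cell type. The listed genes of a mouse summed to 7367 to 8225 in CD4 cells, so values are read as being per 10000. The 3 genes were low: their means over 12 mice were 0.194 for Tmem176a, 0.176 for Tmem176b and 0.111 for Ccr6, which placed them at percentiles 19.1, 17.4 and 11.4 of the listed genes. The number of cells and the depth behind each average are unknown. In an average over cells, more cells with a transcript and more transcript per cell cannot be told apart. The CD4 label was met by T cell genes in all 12 averages, with Cd3d at 7.25 to 10.7 and Cd4 at 1.66 to 3.01. Cd8a was at 0.0526 to 0.269 in the same averages, and Cd3e and Trac were not used here. S100a9 itself was low in every CD4 average, at 0.00449 to 0.0167 in WT control, 0.0418 to 0.0493 in KO control, 0.0595 to 0.111 in WT stress and 0.0228 to 0.0294 in KO stress. Which exons the knockout lacks is not given in the labels, and a 3′ tag outside them checks nothing about genotype.

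The authors listed all 3 genes for the comparison of knockout with wild type without stress, a table of 496 genes, and Tmem176a also for stress in the wild type, a table of 2413 genes. Their rule of selection is not stated in the labels. The genes were thus selected on the values of these 2 comparisons, and the differences in them are given as a description with no test.

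**Figure D1:**
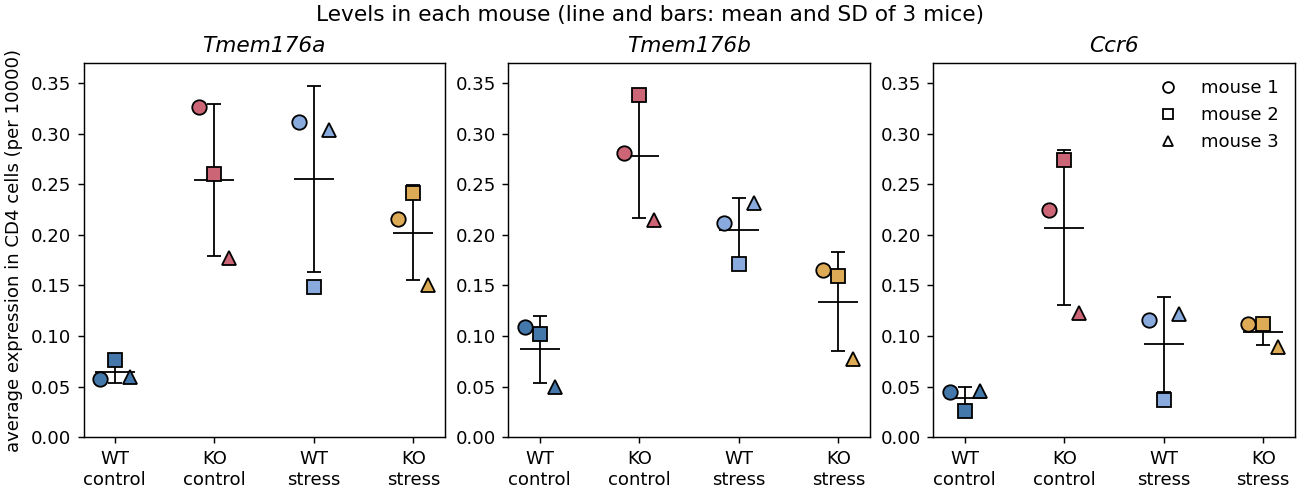
Average expression of each gene in the CD4 cells of each mouse (per 10000, linear axis from 0); circles, squares and triangles are mice 1, 2 and 3, and lines and bars give the mean and SD of 3 mice. The 3 WT control mice lie lowest or among the lowest for each gene, and KO control mouse 3 lies below KO control mice 1 and 2 for all 3 genes.

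Without stress, all 3 genes were higher in knockout than in wild-type CD4 cells. Tmem176a was at 0.0571, 0.0767 and 0.0599 in WT control mice 1, 2 and 3 and at 0.327, 0.26 and 0.177 in KO control mice. Tmem176b was at 0.109, 0.102 and 0.0492 in WT control and at 0.281, 0.338 and 0.215 in KO control mice. Ccr6 was at 0.045, 0.0263 and 0.0458 in WT control and at 0.225, 0.274 and 0.123 in KO control mice. The groups did not overlap for any of the 3 genes, and mouse 3 was the lowest of the KO control mice for each. Group means were 3.95-fold higher for Tmem176a, 3.21-fold for Tmem176b and 5.32-fold for Ccr6. On the log2(value + 0.1) scale, which understates changes of low genes, the differences were 1.09 ± 0.20, 1.02 ± 0.20 and 1.12 ± 0.22 (standard error, 3 mice against 3). With a pseudocount of 0.01 they were 1.80, 1.62 and 2.11, and with 1 they were 0.24, 0.23 and 0.21. Among the 496 genes, 48% had all KO control mice above all WT control mice, and the median log2 difference was 0.20. The 3 genes ranked 15th, 19th and 13th from the top of the 496.

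After stress, the means of all 3 genes were higher than without it in the wild type and lower in the knockout. In WT stress mice 1, 2 and 3 Tmem176a was at 0.312, 0.149 and 0.304, all above the WT control mice, for a 3.95-fold higher mean and a log2 difference of 1.07 ± 0.18. Of the 2413 genes of that table, 36.4% had all WT stress mice above all WT control mice, and Tmem176a ranked 13th from the top. Tmem176b was at 0.212, 0.171 and 0.232 in WT stress mice, also above every WT control mouse, as were 30.1% of the 2999 genes, and its mean was 2.36-fold higher. Ccr6 was at 0.116, 0.037 and 0.122, where mouse 2 fell within the WT control range, and its mean was 2.35-fold higher. In the fit to all 12 mice and 2999 genes the log2 differences of Tmem176b and Ccr6 were 0.72 ± 0.18 and 0.43 ± 0.19. Without WT stress mouse 2 the Ccr6 difference was 0.66. Both use the WT control mice that also chose these genes for being low, so no test is given.

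In the knockout, stressed mice had lower means than unstressed ones. Tmem176a was at 0.216, 0.241 and 0.15 in KO stress mice 1, 2 and 3, which overlapped the KO control mice, with a log2 difference of -0.22 ± 0.20. Tmem176b was at 0.165, 0.159 and 0.0776, below every KO control mouse, and the KO control mean was 2.08-fold higher. Ccr6 was at 0.112, 0.112 and 0.089, also below every KO control mouse, and the KO control mean was 1.99-fold higher. The log2 differences were -0.70 ± 0.18 for Tmem176b and -0.56 ± 0.19 for Ccr6. Among all 2999 genes 30.6% had all KO stress mice below all KO control mice. Centring each mouse on its median moved the median of all genes in this comparison from -0.00 to 0.14, and the 3 differences became -0.08, -0.56 and -0.42. The KO control mice are those that chose the genes for being high, so no test is given here either.

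The order of the 4 groups differed between the genes. Tmem176a had the same mean in KO control and WT stress (0.255 ± 0.0753 and 0.255 ± 0.092, SD, n = 3), then 0.202 ± 0.0467 in KO stress, and these 3 groups overlapped. WT control stood apart at 0.0645 ± 0.0106. Tmem176b went from 0.278 ± 0.0614 in KO control through 0.205 ± 0.031 in WT stress, which overlapped it, to 0.134 ± 0.0489 in KO stress and 0.0867 ± 0.0327 in WT control, which overlapped each other. Ccr6 stood highest in KO control at 0.207 ± 0.0769, above all mice of the next group. It was 0.104 ± 0.0132 in KO stress, 0.0918 ± 0.0476 in WT stress and 0.039 ± 0.011 in WT control, and neighbours in this order overlapped.

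The authors listed Tmem176b and Ccr6 from unstressed mice, so none of the 6 mice of stressed knockout against stressed wild type entered that listing. No member was listed in the authors' table for this stressed comparison, and the fit over 2999 genes was used. The error of that fit also drew on the control mice, and the genes and tests were chosen with earlier results of these data known. The p-values and intervals below are therefore not independent of the choice of genes. Tmem176b was lower in every KO stress mouse than in every WT stress mouse, with a log2 difference of -0.40 ± 0.18 (95% interval -0.78 to -0.02). It did not pass the threshold over all genes (limma, unadjusted p = 0.04, adjusted p = 0.46). In this comparison 5.57% of genes had all KO stress mice below all WT stress mice. Ccr6 differed by 0.12 ± 0.19 (95% interval -0.29 to 0.54), with overlapping groups (limma, adjusted p = 0.88). Without WT stress mouse 2 the Ccr6 difference was -0.10. Tmem176a, whose listing for stress in the wild type used the WT stress mice, differed by -0.21 ± 0.20 and is not tested. Of the 2999 genes, 0.1% were called in this comparison.

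**Figure D2:**
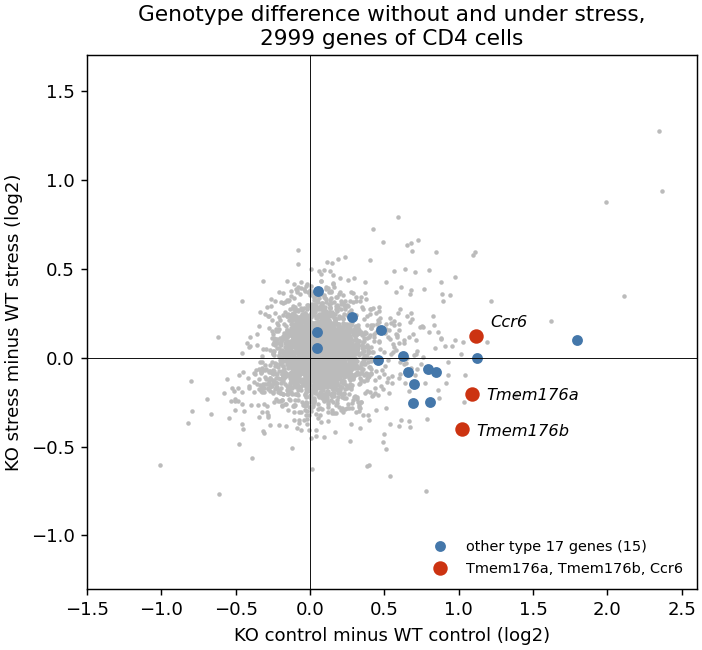
Each point is a gene of the 2999 listed for CD4 cells; the x axis is the log2 difference of KO control minus WT control and the y axis that of KO stress minus WT stress, from separate mice, and 4 genes lie outside the plotted range. The 3 genes sit near 1 on the x axis and between -0.40 and 0.12 on the y axis, and the other 15 type 17 genes (blue) all have positive x values while their y values lie on both sides of 0.

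The difference between the stress effects of the 2 genotypes was -1.29 ± 0.28 for Tmem176a, -1.42 ± 0.25 for Tmem176b and -0.99 ± 0.27 for Ccr6, knockout minus wild type on the log2 scale. These values contain the unstressed genotype difference that chose the genes and are a description. Out of 2999 genes, 0% were called for this interaction (limma, adjusted p; 284 genes had an unadjusted p under 0.05). The median over all genes was -0.05.

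Other genes of type 17 cells were examined as a list of 38, of which 15 were listed for any CD4 comparison. The list holds the transcription factors Rora, Maf, Batf and Runx1, receptors such as Il1r1, Il6ra, Il6st, Cxcr6 and Ltb4r1, and markers such as Serpinb1a, Blk, Capg and Lgals3. Several are also markers of other cells: Blk of B cells, Lgals3 of myeloid cells, and Capg and Icos of regulatory T cells. Interleukin 17 genes and Il23r were not among the genes used here.

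Without stress, 4 of the 10 list genes in the 496-gene table were called higher in the knockout and 0 lower, against 15.1% called higher and 6.65% lower, 21.8% in all, over the table. All 10 differences were positive, as were 74.2% over the table, with a median of 0.75 against 0.20. Those called were the galectin gene Lgals3 (1.79 ± 0.35), the protease inhibitor gene Serpinb1a (0.85 ± 0.18), the kinase gene Blk (0.69 ± 0.19) and the transcription factor gene Maf (1.12 ± 0.31), at limma adjusted p of 0.041, 0.041, 0.047 and 0.047. Maf was at 3.06, 2.43 and 1.13 in KO control mice 1, 2 and 3, against 0.792 to 0.938 in WT control. KO control mouse 3 was thus nearest to the wild type for Maf as for the 3 members.

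These calls depend on single mice and settings. Of the 496 genes, 75 were called higher and 33 lower; centring on each mouse's median gave 64 and 69, with the same 4 list genes called. Without KO control mouse 3, 252 genes and 9 list genes were called, and without WT control mouse 2, 2 genes and 0 list genes. Leaving out WT control mouse 3 or KO control mouse 1 or 2 also left 0 list genes called, leaving out WT control mouse 1 left 1, and with a pseudocount of 1 there were 0.

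Under stress, 0 of the 15 list genes were called between genotypes (7 differences were positive and 8 negative, median -0.00). The smallest p was that of Il6st, at 0.38 ± 0.13 (limma, adjusted p = 0.3), and Maf differed by -0.00 ± 0.28 (limma, adjusted p = 1). For the interaction 0 of 15 were called, with 12 negative and a median of -0.74. Over all 2999 genes the median was -0.05 and 42% of differences were positive. Without KO control mouse 3, 3 were called (Blk, Ltb4r1 and Maf), all lower, against 17 of the 2999 genes. Of the 15 genes, 10 were in the unstressed genotype table, these 3 among them. The interaction holds the difference on which that table was selected, so these signs and calls are a description and no independent evidence.

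Stress in the wild type split the list. Of the 8 list genes among the 2413, 3 rose and 3 fell, against 31% and 28.9% of all, 59.9% together. Lgals3 (1.00 ± 0.15), the actin-capping gene Capg (0.62 ± 0.17) and the cytokine-signalling inhibitor gene Socs3 (0.49 ± 0.16) rose. The interleukin 6 receptor chain genes Il6st (-1.0 ± 0.11) and Il6ra (-0.80 ± 0.11) and Runx1 (-0.75 ± 0.12) fell. In the knockout, in the fit over 2999 genes, 7 of 15 fell and 0 rose, against 29% and 12.7%. They were Blk, Runx1, Il6ra, Il6st, Serpinb1a, Maf and Rora. Of these, Blk, Serpinb1a, Maf and Rora were in the unstressed genotype table, which was selected on the same KO control mice, so their falls are a description and no independent evidence. The log2 difference was -0.85 ± 0.28 for Maf and -0.48 ± 0.15 for Serpinb1a. With centring 6 fell and Batf rose; the calls over all genes went from 382 higher and 871 lower to 893 and 773. Without KO control mouse 1 or mouse 2 only Blk, Il6ra, Il6st and Runx1 fell, and without mouse 3 there were 10.

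Those relatives and chromosomal neighbours of the Tmem176 pair that were in the unstressed table had differences of at most 0.17, against 1.09 and 1.02 for the pair. Of 15 Ms4a genes 4 were listed, and the 2 in the unstressed table, Ms4a4b (0.15 ± 0.06) and Ms4a6b (0.17 ± 0.08), were not called (limma, adjusted p = 0.069 and 0.093). Within 500 kb on either side there were 29 other coding genes, of which 10 were listed, 7 of them Gimap genes. In the unstressed table Gimap1 differed by 0.16 ± 0.06 and Gimap4 by 0.09 ± 0.08, and neither was called. The fit over 2999 genes also covers genes outside that table. There the unstressed genotype difference had a median of 0.23 over the 4 listed Ms4a genes, all positive. It was 0.08 over 8 listed neighbours, 5 of them positive, and 0.07 over all genes, of which 66.2% were positive. Of the Ms4a genes and neighbours, 0 were called. With stress in the wild type, 2 of the 6 Gimap genes among the 2413 were called higher and 2 lower, against 31% and 28.9% of all. Gimap8 (-0.68 ± 0.09) and Gimap3 (-0.43 ± 0.07) fell and Gimap1 (0.22 ± 0.06) and Gimap7 (0.39 ± 0.13) rose, against 1.07 ± 0.18 for Tmem176a. Gimap9 (0.10 ± 0.08) and Gimap5 (0.02 ± 0.09) were not called. Whether the pair differs from its neighbours was not tested.

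Among chemokine receptor genes, 5 besides Ccr6 were in the unstressed table. Cxcr4 was called, and it was lower in the knockout (-0.80 ± 0.23; limma, adjusted p = 0.048). Ccr2, a receptor of monocytes and effector T cells, differed by 1.38 ± 0.47 and Ccr4, a receptor of Th2 and regulatory T cells, by 0.93 ± 0.34, both short of the threshold (limma, adjusted p = 0.063 and 0.07).

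The genes whose log2 values were most like those of a member over the 12 mice were ranked by Pearson's r among 2694 genes, as a description; mice of a group share their condition, which raises r. For Tmem176b they were Serpinb1a (0.94), Cyb5b (0.85), Relb (0.84), Lyz2 (0.83) and Tmem176a (0.82). For Ccr6 they were Lyz2 (0.93), Polr3k (0.90), Serpinb1a (0.89), Vps36 (0.89) and Hba-a2 (0.88). For Tmem176a they were Cnih4 (0.95), Cnih1 (0.93), Svbp (0.92), Sri (0.92) and Hprt (0.91), and Tmem176b ranked 60th at 0.82. Ccr6 had 0.80 with Tmem176a and 0.81 with Tmem176b. Serpinb1a, a type 17 list gene, thus stood in the first 5 for Tmem176b and Ccr6, and Lyz2, the lysozyme of myeloid cells, likewise.

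On deviations from the group means, which leave out the differences between groups, Tmem176a had 0.81 with Ccr6 and 0.64 with Tmem176b, and Tmem176b had 0.57 with Ccr6. Among the 2694 genes, Ccr6 ranked 40th and Tmem176b 249th for Tmem176a, and Ccr6 ranked 235th for Tmem176b. The leading genes on that measure were Atp5o.1 (0.99) and Vps36 (0.95) for Tmem176a, Commd4 (0.93) and Tespa1 (0.92) for Tmem176b, and Polr3k (0.89) and Rps27l (0.89) for Ccr6. The lowest mouse of a group was the same for all 3 members in KO control (mouse 3), WT stress (mouse 2) and KO stress (mouse 3), and a different mouse for each in WT control. In KO control and WT stress the same mice were lowest for the summed type 17, effector, regulatory, myeloid and erythroid lists, but not for B cell markers. In KO stress, of these lists, only the erythroid sum was lowest in mouse 3. Sums of general T cell genes were also lowest in the members' lowest mouse of all 3 groups, at 65 in KO control, 66.9 in WT stress and 70.4 in KO stress. So were those of neutrophil markers, at 0.247, 0.247 and 0.34. The remaining lists did not match in every one of these groups. How many of all genes share these lowest mice was not counted.

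Markers of other cells were present in the same averages, and their sums differed between groups, not always in the members' order. Effector and memory mean sums were 53.3 in KO control and 68.3 in KO stress, and innate lymphoid and natural killer ones 7.34 and 24.2. The mean sums of the myeloid, regulatory, erythroid and B cell lists were lower in KO stress than in KO control, as were the members' means. The 15 listed type 17 genes had mean sums of 8.44 in WT control, 12.3 in KO control, 7.53 in WT stress and 7.83 in KO stress. These sums were thus lower in both stressed groups than in WT control, whereas the members' means were higher there. The 12 listed markers of dendritic cells and monocytes, of 40, summed to 3.51 to 3.7 in WT control, 4.43 to 7.9 in KO control, 4.42 to 5.28 in WT stress and 4.72 to 6.12 in KO stress. Lyz2 was at 0.014 to 0.0498, 0.107 to 0.368, 0.0624 to 0.106 and 0.0899 to 0.111 in the same order, and was called higher in KO control (1.19 ± 0.29; limma, adjusted p = 0.047). The 5 listed erythroid markers, of 14, summed to 0.847 to 1.05, 1.52 to 6.65, 1.27 to 3.7 and 2.94 to 6.27. The 9 listed regulatory T cell markers, of 16, summed to 6.13 to 6.79, 8.09 to 12.9, 5.33 to 8.65 and 6.03 to 7.86. The 29 listed effector and memory genes, of 39, summed to 26.7 to 34.2, 38 to 67.1, 41.6 to 77.7 and 53.5 to 95.

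Without stress 7 of 15 tabled effector and memory genes, 4 of 8 myeloid, 4 of 4 erythroid, 3 of 5 innate lymphoid and natural killer, 1 of 7 regulatory and 1 of 3 B cell markers were called higher in the knockout (limma), against 15.1% of the 496 genes, and 0 of these lower. In KO control the sums of the myeloid, erythroid, regulatory and effector lists were lowest in mouse 3, as were the 3 members. The 13 listed B cell markers, of 36, summed to 6.64 to 13.2 in WT control, 11.6 to 16.3 in KO control, 7.41 to 10.6 in WT stress and 5.98 to 7.85 in KO stress. KO control mouse 3 was the highest of its group, at 16.3, while its Ccr6 was the lowest. Between KO stress and KO control, 12 of the 13 B cell markers, Blk among them, were called lower (limma; median log2 difference -1.08), against 29% of the 2999 genes, beside the lower Tmem176b and Ccr6 of the same mice. In that comparison 3 of 9 regulatory, 2 of 12 myeloid and 0 of 5 erythroid markers were called lower, and 3 of 29 effector and memory genes. Called higher were 3 of 29 effector and memory genes, 3 of 10 innate lymphoid and natural killer and 2 of 6 neutrophil markers. The last 2 lists had 0 called lower. Over all genes 12.7% were called higher, and 0 of the regulatory, myeloid, erythroid and B cell markers were. The 10 listed markers of innate lymphoid and natural killer cells, of 29, summed to 3.07 to 4.97, 4.87 to 8.75, 9.67 to 29.3 and 14.9 to 41.4. Of 16 markers of gamma delta T cells, some of which make interleukin 17, only Blk was listed. The part of these cells and of these markers in the members' differences was not tested.

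**Figure D3:**
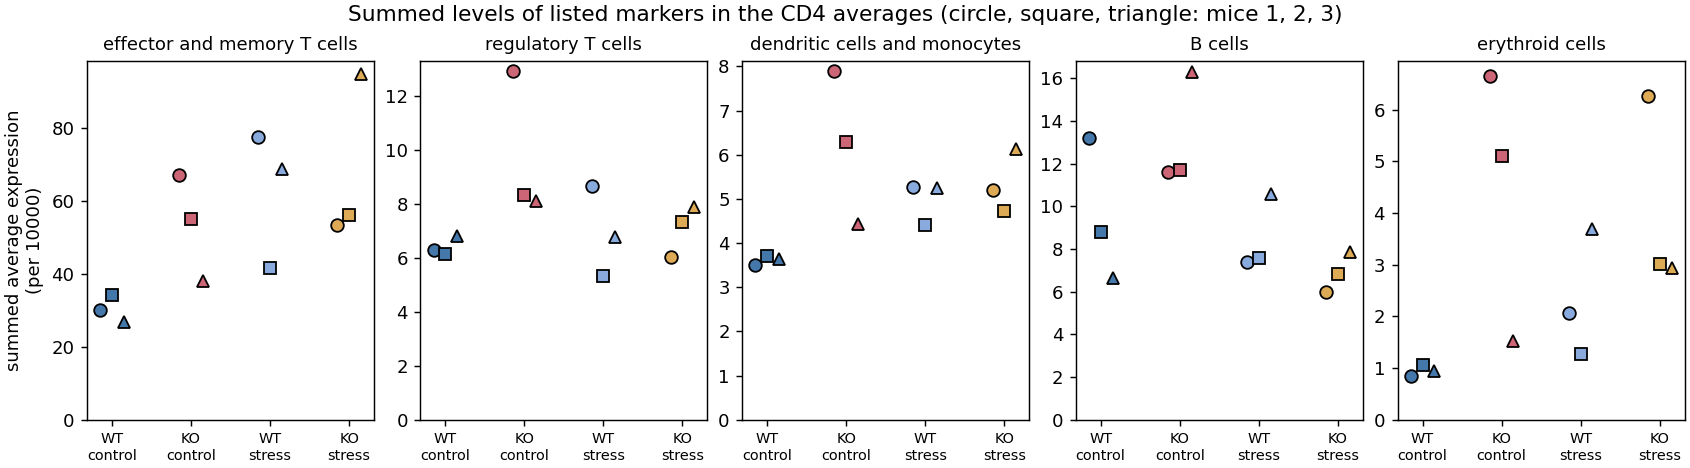
Summed average expression (per 10000, linear axes from 0) of the listed markers of 5 cell types in the CD4 averages of each mouse; circles, squares and triangles are mice 1, 2 and 3. KO control lies above WT control for effector, regulatory, myeloid and erythroid markers and overlaps it for B cell markers, and KO control mouse 3 is the lowest of its group in the first 3 lists and the erythroid list and the highest for B cells.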

How the data were processed

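Spleens of 12 mice, 3 in each of 4 groups, were profiled with the 10x Genomics single cell 3′ v2 kit, per the labels' protocols, and the submitters' processing notes name Cell Ranger 2.1.1 and mm10. The authors deposited 8 tables of a signal: per the file headers, each gene's average expression in every mouse, with genes selected for 1 comparison a table. The labels state neither the cell filters, the treatment of doublets nor how CD4 cells were called. A gene's values did not differ between tables of 1 cell type (0 genes). Columns were matched to mice by the numbers in the labels. They are averages and not counts, so depth is unknown and no counting interval is given. Replicates are separate mice.

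The test was limma 3.58.1 (R 4.3.3) on log2(value + 0.1) (mean-variance trend, two-sided, Benjamini-Hochberg adjustment, called at an adjusted p under 0.05). The comparisons that list a member were fitted on their own table, 3 mice against 3; all others and the interaction came from 1 fit to 12 mice over the 2999 CD4 genes. The authors selected these genes on the same mice, so the share of false calls may exceed the threshold. The 3 genes, the gene lists and the tests were chosen with earlier results of these data known. Members were named wherever listed. The rule named up to 6 type 17 genes and up to 3 of each other list by smallest p, the 5 genes most like each member, and any type 17, Ms4a or neighbour gene. Other genes were named after their values were seen. A gene of the lists is not reported here and was left out of their counts. Fits for CD8a cells and for CD8a against CD4 cells were not run, since no member was listed there. Positions are those of GENCODE M21 (mm10). The fits were tested on simulated data.

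The fits were repeated with a pseudocount of 0.01 or 1, without the lowest 25% of genes, centred on each mouse's median, with no trend, blocked on mouse number, with all 4 groups together, and without each mouse in turn.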

Additional observations from a re-analysis of the deposited data

Results flagged for a closer look

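Tmem176b in CD4 cells was higher in every stressed than in every unstressed wild-type mouse, and lower in every stressed than in every unstressed knockout mouse. Each separation taken alone was common: 30.1% of the 2999 genes had that of the wild type and 30.6% that of the knockout. How many genes had both was not counted. The difference between the stress effects on Tmem176b was -1.42 ± 0.25 on the log2 scale. It was not tested, because it holds the unstressed genotype difference that chose the gene.

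Serpinb1a, from the type 17 list, was separated in the same 2 directions, with a difference of -0.93 ± 0.21 that did not pass over all 2999 genes (limma, adjusted p = 0.22). It too was in the unstressed genotype table, so its difference holds the one that selected it and is no independent evidence.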

How the results depend on the processing

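The unstressed genotype comparison was the least stable. Its 108 called genes became 4 with a pseudocount of 1, 4 with the lowest 25% of genes removed, 69 without the mean-variance trend, 227 with all 4 groups in 1 fit, and 2 to 252 when 1 mouse was left out. With the replicate block there were 229, but the mouse numbers are no more than numbers: deviations of same-numbered mice had r over 0.1 in 1 of 18 pairs, and 3 of 12 mice were most like their own number. Stress in the wild type gave 1446 called genes and 1255 to 1423 with 1 mouse left out. Genotype under stress gave 3, 5 without the trend and 3 to 5 with 1 mouse left out. The interaction gave 0, 1 with a pseudocount of 0.01, 1 without the trend and 0 to 17 with 1 mouse left out, the 17 without KO control mouse 3. The cause of these changes was not tested.

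Every member kept its direction in the alternatives run, except Ccr6 between stressed genotypes, which went from 0.12 to -0.10 without WT stress mouse 2 and to 0.24 without mouse 3 (for -0.10, limma, adjusted p = 0.89; over the alternatives, 0.72 to 0.94). For Tmem176b in that comparison adjusted p ran from 0.4 to 0.77. With 1 mouse left out the unstressed differences ran from 0.94 to 1.26 for Tmem176a, 0.87 to 1.15 for Tmem176b and 0.96 to 1.33 for Ccr6. The pseudocount moved them most, since their levels are close to 0.1. Removing the lowest 25% of genes took all 3 out of the fits.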
